A study of Mus musculus with 6 samples.

Results

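Ccn2 and its relatives in YAP/TEAD signalling were examined in the hippocampus of aged mice: 8 genes were named, and 7 of them could be read, out of 14860 genes with a probe of their own. The 8 were the target genes Ccn2, Ccn1, Ankrd1 and Amotl2, the coactivator genes Yap1 and Wwtr1, the transcription factor gene Tead1 and the kinase gene Lats2. A gene was read from a probe annotated with its symbol alone, and each of the 7 had 1 such probe. Tead1 was not measured by this rule, because its only probe also carries the symbol 2610024B07Rik, which RefSeq lists as a synonym of Tead1. The genes were chosen from the pathway with their transgenic and wildtype values already known, so the differences of the set are a description and no test is given for them.

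The series held 3 transgenic mice, labelled HGPS, commonly short for Hutchinson-Gilford progeria syndrome (early ageing from mutant lamin A), and 3 wildtype mice. All 6 animals were 63 weeks old, and the hippocampus of each was hybridised to 1 Affymetrix array. The labels name no allele, no promoter for the transgene, no strain and no sex, which limits what the groups stand for. The values are log2 expression, made by the authors with RMA, so a difference of 1 is a doubling of signal.

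YAP (from Yap1) and TAZ (from Wwtr1) are coactivators that enter the nucleus when cells are stretched, spread on a stiff substrate or released from contact with their neighbours. There they bind TEAD factors and switch on genes for matrix proteins and for regulators of the pathway itself. The Hippo kinases, ending in LATS1 and LATS2, phosphorylate YAP and TAZ and hold them in the cytoplasm. Ccn2 and Ccn1 encode secreted matricellular proteins, which bind integrins and growth factors. In the brain, YAP and TAZ are known mainly from astrocytes, vessels and the ependyma rather than from mature neurons, and Ccn2 also marks neurons of the deepest cortical layer.

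The TEAD factors bind the hexamer GGAATG, which reads CATTCC on the other strand. It was searched on both strands in RefSeq promoter windows of the assembly GRCm38.p6, which run from 250 bases before a start site to 50 after it, and no other motif was searched. A match is only a run of letters, and 14.7% of all 32851 windows held one. Of the 8 named genes 6 had a window, all but Ccn2 and Tead1, and each of the 6 held the hexamer in at least 1 window, where 16.6% of all genes in the table did. Of the other YAP/TAZ targets listed further on, 2 of 10 with a window held it. In the other pathway lists it was held by 2 of 10 immediate early genes and 0 of 1 CCN genes with a window. It was held by 5 of 18 genes of the Hippo list, 5 of 13 of the SRF and MRTF list and 4 of 6 TEAD and VGLL genes. The 250 bases before the start are shown for Ccn1 and Ankrd1, the targets on which the comparison with Ccn2 turns, and a 30-base stretch around the match for the other 4 genes, 5′ to 3′ on the gene's own strand with the hexamer in capitals.
Ccn1, chr3:145649986-145650235, minus strand: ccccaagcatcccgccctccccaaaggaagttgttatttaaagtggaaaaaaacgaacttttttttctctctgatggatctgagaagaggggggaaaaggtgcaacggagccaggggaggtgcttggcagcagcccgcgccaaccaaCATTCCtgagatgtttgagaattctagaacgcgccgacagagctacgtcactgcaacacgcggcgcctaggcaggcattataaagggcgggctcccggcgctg
Ankrd1, chr19:36119845-36120094, minus strand: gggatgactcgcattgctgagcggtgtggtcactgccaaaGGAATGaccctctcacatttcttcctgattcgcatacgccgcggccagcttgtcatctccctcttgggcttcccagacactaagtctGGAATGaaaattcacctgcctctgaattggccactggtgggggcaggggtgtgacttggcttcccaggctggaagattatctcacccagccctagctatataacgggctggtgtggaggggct
Amotl2, chr9:102717727-102717756, plus strand: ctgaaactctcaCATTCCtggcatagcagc
Yap1, chr9:8004720-8004749, minus strand: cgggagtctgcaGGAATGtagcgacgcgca
Wwtr1, chr3:57576029-57576058, minus strand: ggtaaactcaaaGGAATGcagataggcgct
Lats2, chr14:57746102-57746131, minus strand: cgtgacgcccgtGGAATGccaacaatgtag
The match began 103 bases before the start of Ccn1, 65 before that of Amotl2 and 141 before that of Yap1. Ankrd1 held 2 matches, 210 and 123 bases before its start. In Wwtr1 the same match lay in both of its windows, 136 or 170 bases before the start, and in Lats2 it began at base 5 of the transcript in 1 of 2 windows. These sequences come from another build than the mm8 named in the submitters' processing notes, and all 6 genes shown are ones whose expression overlapped between the groups.

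The 6 arrays were close to each other, with Pearson's r between 0.982 and 0.993 across all 23332 probes of the table and array medians between 7.44 and 7.47. All 8 marker genes of hippocampal neurons lay above the median probe on every array. Wildtype replicates 2 and 3 stood apart from the other 4 arrays in the Y-linked genes Eif2s3y and Kdm5d, with a mean level of 8.41 and 8.45, against 4.67, 4.78 and 4.70 in the transgenic animals and 4.63 in wildtype replicate 1. The groups were therefore unbalanced in this signal, and so apparently in sex, which the labels do not name. Results are also given without those 2 arrays, which leaves 1 wildtype array and no test. In limma, 7 of the 14996 probes with 1 symbol passed a false discovery rate of 10% and none of these was a gene of the set or of the lists described here.

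Ccn2 had a higher level in transgenic hippocampus. It measured 9.67, 9.61 and 9.46 in the transgenic animals, against 9.07, 9.07 and 8.90 in the wildtype animals. Every transgenic animal lay above every wildtype animal, and the lowest transgenic value exceeded the highest wildtype value by 0.39. The mean was 9.58 ± 0.11 in transgenic and 9.01 ± 0.10 in wildtype hippocampus (SD, n = 3 each). The log2 difference was 0.57 ± 0.08 (moderated SE, 95% interval 0.37 to 0.76), or a 1.48-fold level (1.29 to 1.69), and ranked 73rd from the top of the 14996 probes tested. In tissue RNA, more cells that express a gene and more RNA per cell cannot be told apart.

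**Figure D1:**
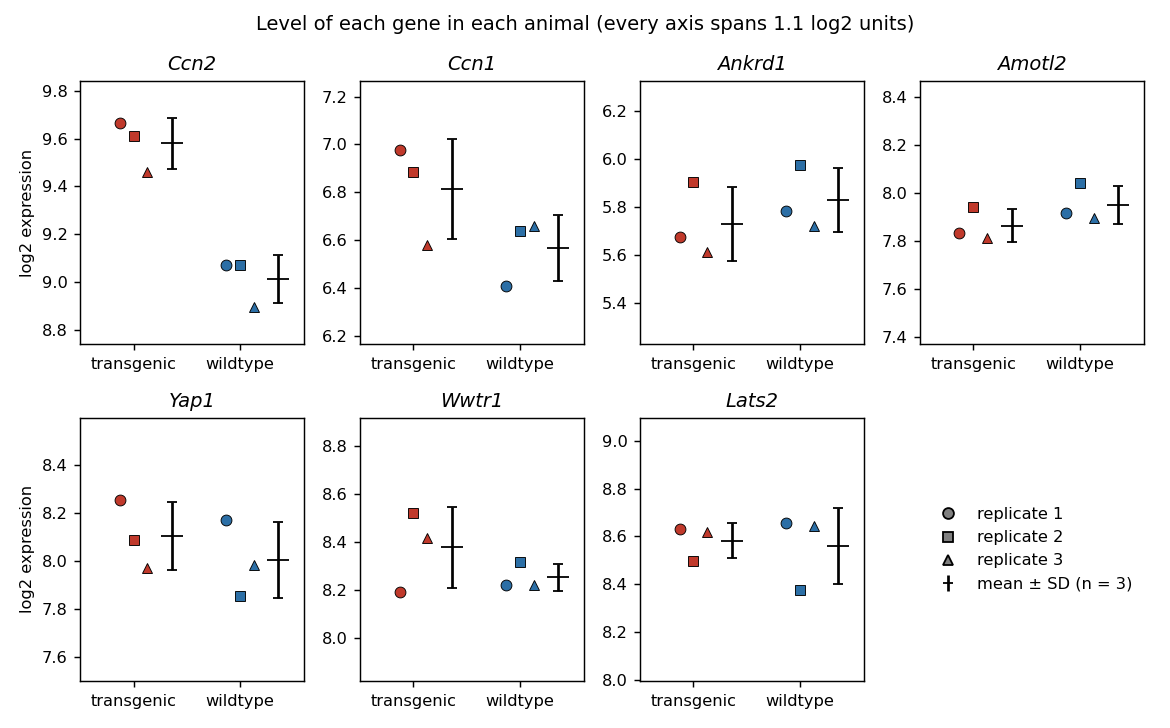
Log2 expression of 7 genes in each animal, transgenic left of wildtype, with the replicate number as the marker shape and the mean ± SD beside the points. Ccn2 is the gene whose groups stand apart, at 9.46 to 9.67 in transgenic and 8.90 to 9.07 in wildtype animals, while the points of the other 6 genes overlap.

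Only 1 wildtype animal, replicate 1, lacked the Y-linked signal, and the part of this signal in the difference of Ccn2 was not tested. Wildtype replicate 1 was at 9.07, the same as wildtype replicate 2, and the transgenic mean lay 0.51 above each of them and 0.68 above wildtype replicate 3. Without wildtype replicates 2 and 3 the difference was 0.51.

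Ccn1, the closest relative of Ccn2 in the set and a gene that growth factors induce within minutes, was less separated. It measured 6.98, 6.88 and 6.58 in the transgenic animals, against 6.41, 6.64 and 6.66 in the wildtype animals. Transgenic replicates 1 and 2 lay above every wildtype animal, whereas transgenic replicate 3 lay below wildtype replicates 2 and 3. The difference was 0.25 ± 0.12 (95% interval -0.04 to 0.53), and its value moved with the array left out, to 0.16 without transgenic replicate 1 and to 0.41 without wildtype replicates 2 and 3. Wildtype replicate 1, the lowest array for Ccn1, was also the lowest for the immediate early genes described further on.

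Ankrd1, which encodes a cardiac and stress-induced ankyrin repeat protein and is a standard reporter of YAP activity, lay slightly lower in the transgenic group. Its levels were 5.67, 5.91 and 5.61 in the transgenic animals, against 5.78, 5.98 and 5.72 in the wildtype animals. The groups overlapped, with transgenic replicate 2 above 2 of the wildtype animals. The difference was -0.10 ± 0.10 (95% interval -0.34 to 0.14), and -0.19 to -0.023 when 1 array was left out. The probes of Ankrd1 and Ccn1 were among the dimmest 33.3%, where RMA values tend to understate differences. Whether this held for Ankrd1 and Ccn1 was not tested.

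Amotl2, whose product angiomotin-like 2 ties YAP to cell junctions and is induced by YAP in turn, resembled Ankrd1. It measured 7.83, 7.94 and 7.81 in the transgenic animals, against 7.92, 8.04 and 7.90 in the wildtype animals. The groups overlapped at transgenic replicate 2, and the difference was -0.09 ± 0.07 (95% interval -0.25 to 0.08). In both genes replicate 2 was the highest array of its group, transgenic and wildtype alike. The profiles of Ankrd1 and Amotl2 over the 6 arrays, each centred on its own mean, differed by a root mean square of 0.06, the smallest value between any 2 genes of the set.

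The coactivator genes overlapped between the groups. Yap1 measured 8.25, 8.09 and 7.97 in the transgenic animals, against 8.17, 7.85 and 7.98 in the wildtype animals, a difference of 0.10 ± 0.11 (95% interval -0.15 to 0.35). Wildtype replicate 1 was the second highest of the 6 arrays, and the difference of Yap1 was 0.027 to 0.19 when 1 array was left out and turned to -0.07 without wildtype replicates 2 and 3. Wwtr1 measured 8.19, 8.52 and 8.42 in the transgenic animals, against 8.22, 8.32 and 8.22 in the wildtype animals. Transgenic replicate 1 was the lowest array of all for Wwtr1 and the highest for Yap1. The difference of Wwtr1 was 0.13 ± 0.09 (95% interval -0.09 to 0.34), 0.22 without transgenic replicate 1 and 0.053 without transgenic replicate 2.

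Lats2, the kinase that restrains YAP and is itself a YAP target, was nearly level. It measured 8.63, 8.50 and 8.62 in the transgenic animals, against 8.66, 8.38 and 8.64 in the wildtype animals. Wildtype replicate 2 was the lowest array and the other 5 lay between 8.50 and 8.66. The difference was 0.02 ± 0.09 (95% interval -0.19 to 0.24), and it took either sign depending on the array left out.

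Of the 7 genes, 5 had a difference above 0, as did 49.9% of all probes, and 2 below, with a median of 0.10, beside a median of -0.00016 over all 14996 probes. None passed the rate of 10%, at which 0.0467% of all probes were called. Groups that did not overlap with the transgenic animals higher occurred in 1 of the 7 genes and in 9.14% of all probes. Apart from Ccn2 and Ccn1, the 5 other genes had differences between the 5th and the 95th percentile of all probes, which were -0.24 and 0.23. The median of the set turned to -0.05 without wildtype replicates 2 and 3.

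**Figure D2:**
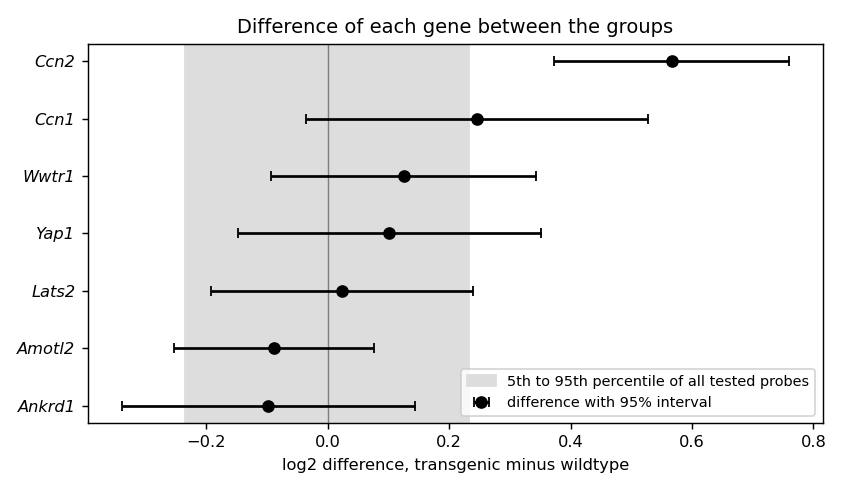
Log2 difference of each gene, transgenic minus wildtype, with its 95% interval from the fit over all probes, and a grey band from the 5th to the 95th percentile of the differences of all 14996 probes. The interval of Ccn2, 0.37 to 0.76, lies beyond the band, and those of the other 6 genes reach into it.

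The genes whose profiles lay nearest to that of Ccn2 over the 6 arrays were not genes of the set. Likeness was measured as the root mean square difference between profiles centred on their own means, among 14859 other genes, and since it selects genes that differ as Ccn2 does, no test is given for them. The nearest was Cdh1, the gene of E-cadherin, an adhesion protein of epithelia and of the arachnoid barrier, at 0.06. It measured 7.43, 7.40 and 7.29 in the transgenic animals, against 7.03, 6.95 and 6.76 in the wildtype animals. It was followed by Tcim, a transcriptional and immune response regulator (0.08), by the membrane-bound chemokine gene Cxcl16 (0.09), by Des, the intermediate filament gene of muscle and pericytes (0.10), and by Crabp2, which encodes a carrier of retinoic acid (0.10). Their differences lay between 0.44 for Cxcl16 and 0.60 for Crabp2, and the groups did not overlap in any of the 5. Among the genes of the set Ccn1 was nearest to Ccn2, in place 459, and Ankrd1 was farthest, in place 10609.

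Other targets of YAP and TAZ were read from a 16-gene list drawn from a published target signature, without the genes of the set. Of 13 measured members 10 were above 0 and 3 below, and none passed the rate of 10%. The median difference was 0.03 (0.015 to 0.073 over the 6 fits that left out 1 array), and 0.0087 without wildtype replicates 2 and 3. At an unadjusted limma p under 0.05 there were 3 higher and 0 lower, where all probes gave 5.81% higher and 4.8% lower. These were Igfbp3, a carrier of insulin-like growth factors, Dock5, an activator of the GTPase Rac, and F3, which encodes tissue factor, the trigger of blood clotting.

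Igfbp3 measured 8.07, 8.07 and 8.11 in the transgenic animals, against 7.86, 7.50 and 7.78 in the wildtype animals, a difference of 0.37 ± 0.10 (limma adjusted p = 0.431). Dock5 differed by 0.27 ± 0.08 (limma adjusted p = 0.431) and F3 by 0.18 ± 0.06 (limma adjusted p = 0.433). Groups that did not overlap with the transgenic animals higher occurred in these 3 of the 13 genes and in 9.14% of all probes. The 3 were named for their small p, which favours such groups. The mean level of the list relative to the 6 arrays was 0.03 to 0.04 in the transgenic animals, against -0.01, -0.11 and 0.00 in the wildtype animals.

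The Hippo kinase cascade and its inputs showed no common direction. Of 22 listed genes 15 were measured, 8 of them above 0 and 7 below, with a median of 0.01 that took either sign when 1 array was left out (-0.0098 to 0.025). None passed the rate of 10%, and 1 had an unadjusted limma p under 0.05. This was Ptpn14, a phosphatase that binds YAP, at 8.61, 8.46 and 8.38 in the transgenic animals, against 8.42, 8.14 and 8.17 in the wildtype animals (difference 0.24 ± 0.10, limma adjusted p = 0.463). Mob1a, the partner that activates LATS kinases, differed by 0.28 ± 0.12 (limma adjusted p = 0.483). Taok1, a kinase upstream of the cascade, differed by -0.14 ± 0.07 (limma adjusted p = 0.491), with every transgenic animal below every wildtype animal. Non-overlap in that direction occurred in 3 of the 15 genes and in 8.55% of all probes.

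Among 6 measured genes of other TEAD and VGLL factors, the partners and competitors of YAP at DNA, 2 were above 0 and 4 below, with a median of -0.01 and no call. Vgll1, a TEAD cofactor, had the smallest p, at 6.59, 6.71 and 6.64 in the transgenic animals, against 6.73, 6.90 and 6.95 in the wildtype animals (difference -0.21 ± 0.08, limma adjusted p = 0.433). Vgll4, which competes with YAP for TEAD, differed by 0.10 ± 0.07, and Vgll2, known from skeletal muscle, by -0.05 ± 0.07.

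Of the CCN family beyond Ccn1 and Ccn2, all 3 measured genes were below 0 in the reported fit, with no call at the rate of 10%. Ccn4, a Wnt-induced member of the family, measured 6.82, 6.84 and 6.90 in the transgenic animals, against 6.97, 7.11 and 6.96 in the wildtype animals (difference -0.16 ± 0.07, limma adjusted p = 0.469). Ccn5, which lacks the C-terminal domain of its relatives, differed by -0.14 ± 0.12 and Ccn3 by -0.08 ± 0.08, with overlapping groups in both. The median of the 3 genes was -0.14, was -0.074 without wildtype replicate 2 and turned to 0.03 without wildtype replicates 2 and 3.

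Genes of the SRF and MRTF pathway, which senses actin assembly and shares Ccn1 and Ccn2 as targets with YAP, were mostly higher. Of 13 measured genes 12 were above 0, with a median of 0.20, and none passed the rate of 10%, while 8 had an unadjusted limma p under 0.05 in the higher direction, as had 5.81% of all probes. Cnn1, the gene of the smooth muscle protein calponin, measured 7.10, 7.25 and 6.97 in the transgenic animals, against 6.91, 6.64 and 6.45 in the wildtype animals (difference 0.44 ± 0.13, limma adjusted p = 0.431). The fibronectin receptor subunit gene Itga5 differed by 0.20 ± 0.06 (limma adjusted p = 0.431).

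Thbs1, which encodes the matricellular protein thrombospondin 1, measured 8.19, 7.89 and 7.95 in the transgenic animals, against 7.87, 7.25 and 7.25 in the wildtype animals (difference 0.55 ± 0.18, limma adjusted p = 0.432). Its level in wildtype replicate 1 was near that of transgenic replicate 2. The mean level of the list was 0.21, 0.18 and 0.11 in the transgenic animals, against 0.09, -0.30 and -0.29 in the wildtype animals. Its median was 0.06 without wildtype replicates 2 and 3.

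Immediate early genes, a class that includes Ccn1 in growth-factor treated cells, were all above 0, as were 49.9% of all probes. The 12 measured genes had a median of 0.32, with none past the rate of 10% and 9 higher at an unadjusted limma p under 0.05, beside 5.81% of all probes. Npas4, an activity-dependent transcription factor, differed by 0.64 ± 0.15 (limma adjusted p = 0.431), Klf4 by 0.34 ± 0.08 (limma adjusted p = 0.431) and Egr1 by 0.31 ± 0.06 (limma adjusted p = 0.431). The mean level of the list was 0.20, 0.08 and 0.23 in the transgenic animals, against -0.29, -0.03 and -0.19 in the wildtype animals. In this mean, as in those of the YAP/TAZ target and SRF lists, all transgenic animals lay above all wildtype animals. Wildtype replicate 1 was the lowest array for the immediate early genes. Of the 12 genes, 6 had groups that did not overlap with the transgenic animals higher, as had 9.14% of all probes.

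**Figure D3:**
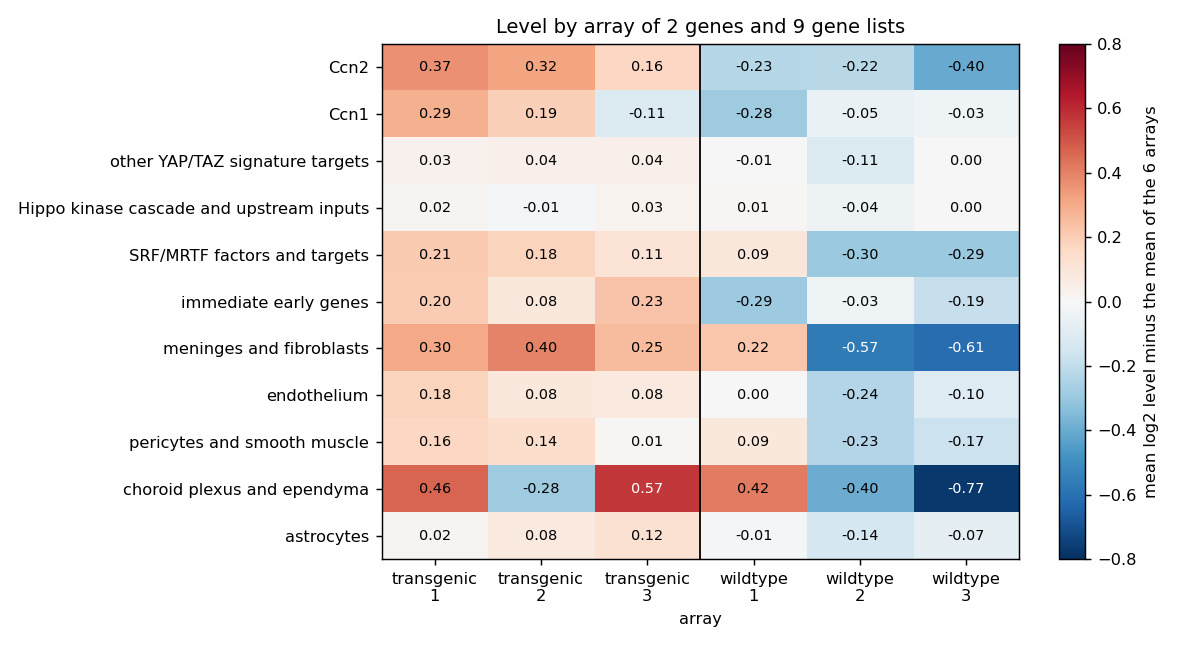
Mean log2 level of Ccn2, Ccn1 and 9 gene lists on each array, relative to the mean of the 6 arrays, with transgenic arrays left of wildtype arrays and red for higher. Wildtype replicates 1, 2 and 3 are at -0.23, -0.22 and -0.40 for Ccn2 and at -0.29, -0.03 and -0.19 for immediate early genes. They are at 0.22, -0.57 and -0.61 for meninges and fibroblasts and at 0.42, -0.40 and -0.77 for choroid plexus and ependyma.

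Markers of vessels and brain coverings differed between the arrays and are given here beside Ccn2. All 12 marker genes of meninges and fibroblasts were above 0, with a median difference of 0.52 and a mean level of 0.25 to 0.40 in the transgenic animals, against 0.22, -0.57 and -0.61 in the wildtype animals. The level of Ccn2 on the same scale was 0.37, 0.32 and 0.16 in the transgenic animals, against -0.23, -0.22 and -0.40 in the wildtype animals. Pericyte and smooth muscle markers were above 0 in 8 of 10 genes, with mean levels of 0.16, 0.14 and 0.01 in the transgenic animals, against 0.09, -0.23 and -0.17 in the wildtype animals. Their differences ran from -0.32 to 0.64. Groups did not overlap in 3 of the 10 genes with transgenic higher and in 1 with transgenic lower, beside 9.14% and 8.55% of all probes.

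Endothelial markers were above 0 in all 11 measured genes, with a median of 0.21. Their mean levels were 0.18, 0.08 and 0.08 in the transgenic animals, against 0.00, -0.24 and -0.10 in the wildtype animals. The groups did not overlap in this mean, nor in those of the meningeal, astrocyte, YAP/TAZ target, SRF and immediate early gene lists. In the means of the other lists they overlapped. In 5 of the 11 endothelial genes every transgenic animal lay above every wildtype animal, as in 9.14% of all probes. Astrocyte markers were above 0 in 8 of 9 genes, with a median of 0.18 and mean levels of 0.02 to 0.12 in the transgenic animals, against -0.14 to -0.01 in the wildtype animals.  Markers of choroid plexus and ependyma, of which 6 of 10 were measured, were all above 0 with a median of 0.62, and their mean levels of 0.46, -0.28 and 0.57 in the transgenic animals, against 0.42, -0.40 and -0.77 in the wildtype animals, put transgenic replicate 2 low and wildtype replicate 1 high. The part of any of these cell types in the difference of Ccn2 was not tested. Markers of microglia and of hippocampal neurons had medians of -0.04 and -0.02, and those of oligodendrocytes one of 0.04.

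Other ways of processing the values left the difference of Ccn2 above 0. Of 18 such settings 12 can move a difference between the groups, by rescaling, weighting or leaving out arrays or by the covariate, and the others change only its error or the genes tested. Over these 12 the difference of Ccn2 lay between 0.51 and 0.63, that of Amotl2 between -0.13 and -0.04 and that of Ccn1 between 0.16 and 0.41. Ankrd1 was at 0.0035 with array weights and below 0 in the rest. As the lowest transgenic value of Ccn2 exceeded the highest wildtype value by 0.39, leaving out or weighting arrays could not turn its sign. Nothing is read from its kept direction.

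**Figure D4:**
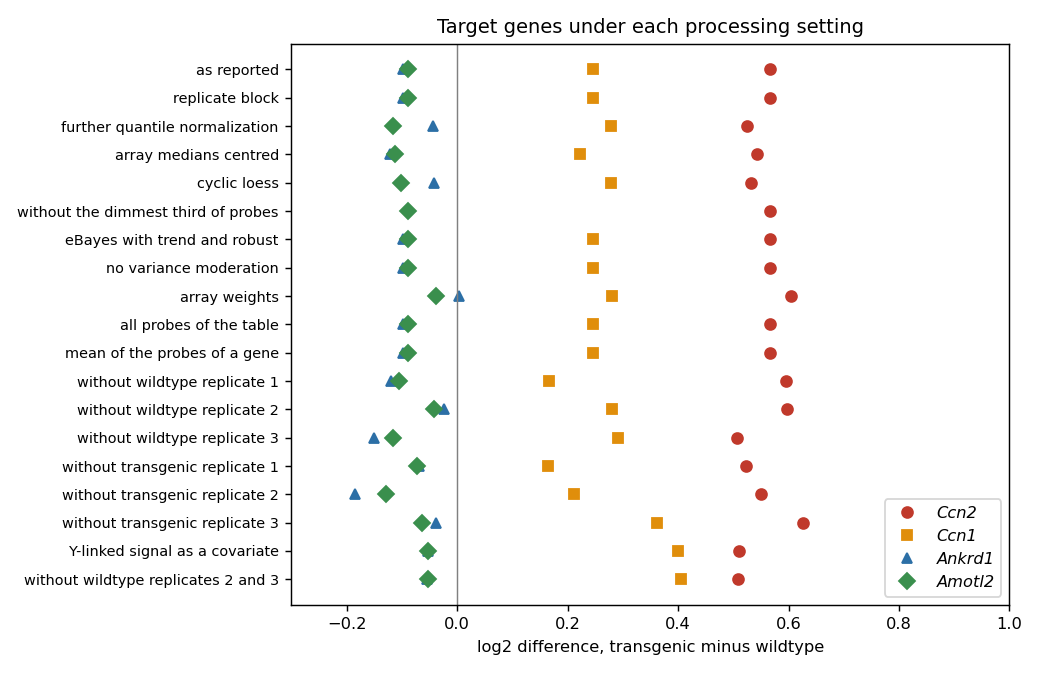
Log2 difference, transgenic minus wildtype, of the 4 target genes under the reported setting and 18 others, 1 setting per line. Ccn2 lies between 0.51 and 0.63, Ccn1 lies between 0.16 and 0.41, and Ankrd1 and Amotl2 lie near or below 0.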

How the data were processed

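The authors deposited log2 values, 1 per probe set and array. The submitters' processing notes list RMA, a method of background correction, normalization between arrays and summary over probes, and the build mm8, without a version or a filter. Platform annotation, which can be old, gave 1 symbol to 14996 of 23332 probes, several to 1019 and none to 7317. The 14996 were fitted in R 4.3.3 by limma 3.58.1, two-sided and without covariates (lmFit, eBayes), with Benjamini-Hochberg adjustment over all of them. The series states a rate of 10% and a 2-fold difference and names no test. Errors of differences are moderated standard errors. With several probes, the one with the highest mean stood for a gene. Replicates are separate animals per the labels, and precision is limited by their number. The method was run on simulated data with noise independent between probes, unlike arrays where genes move together, and nothing is read from it. The genes and lists were chosen with earlier results of these data known. A further list is not reported here. Named genes were the set, up to 3 per list with the smallest p, any list gene past the rate and the 5 nearest to Ccn2. Cell type marker lists covered hippocampal neurons, meninges, endothelium, pericytes, choroid plexus, astrocytes, microglia and oligodendrocytes. Alternatives were other normalizations, filters, variance estimates, array weights, a replicate block, the Y-linked signal as a covariate and leaving out arrays.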

Additional observations from a re-analysis of the deposited data

How the results depend on the processing

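The count of called probes, 7, depended on the setting. It was 0 with the replicate block, without variance moderation, with all 23332 probes and with Y-linked signal as covariate, and 12 with trend and robust estimation and with array weights, while 1592 had an unadjusted limma p under 0.05. Leaving out 1 array gave 0 to 103, the highest without wildtype replicate 1, with 6 without transgenic replicate 3 and 0 without any 1 of the other 4 arrays. Of the set, 1 gene, Ccn2, was called without the dimmest 33.3% of probes, with trend and robust estimation, with array weights and without wildtype replicate 1 (0 to 1 over the arrays left out), counts from which nothing is read, since the genes were chosen with their values known. The median of the set was -0.053 with the Y-linked covariate and -0.053 without wildtype replicates 2 and 3, and 0.027 to 0.11 leaving out 1 array. Yap1 was at -0.06 with the covariate. With the covariate and without these 2 arrays, the Hippo list had a median of -0.028 and -0.029 and the CCN list one of 0.028 and 0.033. The YAP/TAZ target list had 0.10 without dim probes and 0.011 with the Y-linked covariate. The TEAD and VGLL list had -0.052 to 0.0032 leaving out 1 array, and the SRF list 0 to 3 calls. The 3 calls, named after their values were seen, were Acta2, Tagln and Thbs1 without wildtype replicate 1. That setting also called marker genes of other lists. These were Igf2, Slc22a6, Slc6a13, Fbln1, Aldh1a2 and Slc13a3 of the meninges, Cdh5 of endothelium, Vtn and Des of pericytes and Gjb6 of astrocytes. The causes were not tested. The covariate and the setting without these 2 arrays both rest on wildtype replicate 1. Same-numbered animals deviated together with r of 0.23, 0.15 and 0.02, so the numbers were not taken as pairs. Every animal but wildtype replicate 3, which was nearer to transgenic replicate 2 (r of 0.093), correlated best with its own number. With the replicate block 0 probes and 0 genes of the set were called.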
